A study of Mus musculus with 6 samples.

Results

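The proteins of the cytosolic ribosome were represented by 84 of the 38293 genes in the count files: 51 genes of the large subunit (Rpl symbols) and 33 of the small subunit (Rps symbols). They were chosen by symbol alone: Rpl or Rps followed by a number, with an optional a, l or x after it, together with the stalk genes Rplp0, Rplp1 and Rplp2 and with Rpsa, and without symbols marked -ps for pseudogenes. Together they held 11575920 of the 71865429 unique molecular identifiers (UMIs, each standing for 1 captured RNA molecule) in the cells kept, or 16.1%.

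Single CD11b+ cells were prepared from the spinal cord of C57BL/6 mice aged 10 weeks, CD11b being an integrin carried by microglia, monocytes, neutrophils, many dendritic cells and natural killer cells. Experimental autoimmune encephalomyelitis (EAE) had just begun in some of the mice, and the others were healthy; in EAE, immunisation with the myelin peptide MOG35-55 starts an inflammatory demyelinating disease used as a model of multiple sclerosis. There were 3 groups of 2 droplet libraries: EAE ROS+, EAE ROS- and healthy ROS-. All 3 groups had been loaded with 10 uM DCFDA, a dye that fluoresces once reactive oxygen species (ROS) oxidise it, and ROS+ and ROS- are gates on that fluorescence among CD11b+ cells. The cells of every group had been through enzymatic dissociation at body temperature before sorting. Whether each library holds its own animals is not given by the labels, so p-values measure the spread between these libraries, which may be technical.

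A ribosome carries 1 copy of nearly every one of these proteins, but the messages of their genes differed in level in these cells, as given below. Their messages begin with a short run of pyrimidines (the 5' terminal oligopyrimidine, or TOP, motif), through which the mTORC1 kinase and the RNA-binding protein Larp1 set how well they are translated, and the transcription factor Myc raises the output of many of them together with the genes of ribosome assembly. Microglia, the resident macrophages of the spinal cord, and the monocyte-derived cells that enter it in EAE differ in origin, life span and rate of division.

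Libraries held between 915197 and 23407825 UMIs, and any pair of libraries shared at most 7 cell barcodes. Cells were assigned to classes by the UMIs of marker lists, and the class names below stand for those marker counts alone: 2770 microglia (Tmem119, P2ry12, Sall1 and others), 5256 monocyte-derived cells (Ly6c2, Fn1, Vcan and others), 110 dendritic cells (Flt3, Zbtb46, Ccr7 and others) and 52 T/NK cells (Cd3e, Trbc2, Nkg7 and others), with 876 cells unassigned. Values for a group are given for its replicate 1 and then its replicate 2. The EAE ROS+ libraries held 27 and 21 microglia, the EAE ROS- libraries 531 and 246, and the healthy libraries 1749 and 196. Monocyte-derived cells were 1598 and 2085 of the EAE ROS+ cells and 602 and 971 of the EAE ROS- cells, and the healthy libraries held none. Dendritic cells (42 and 65) and T/NK cells (28 and 22) reached 10 cells per library in EAE ROS- only. Their sums carried their own lists at 4087 and 6955 CPM for dendritic cells and at 9123 and 4848 CPM for T/NK cells (CPM being UMI counts scaled to a common total per library, here the plain total and in the tests of genes the total scaled by TMM).

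Sequence at the start of the gene is shown for 6 members whose values are described below, because the TOP motif lies there. Each run covers 40 bases before to 20 after the first transcribed base, which is base 41, in the gene's own direction. The sequences are RefSeq promoters on build GRCm38.p6, and capitals mark any C followed by at least 5 further C or T. Rpl22l1, at chr3:28805468-28805527 on the plus strand, and Rps27, at chr3:90213629-90213688 on the minus strand, differed between microglia and monocyte-derived cells in opposite directions. Rpl12 (chr2:32961672-32961731, plus strand) was the largest change in T/NK cells, Rpl35 (chr2:39005112-39005171, minus strand) was among the largest in EAE microglia, and Rpsa (chr9:120127726-120127785, plus strand) and Rps9 (chr7:3704001-3704060, plus strand) differed between cell classes.
Rpl22l1: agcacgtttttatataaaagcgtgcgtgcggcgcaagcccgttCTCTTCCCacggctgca
Rps27: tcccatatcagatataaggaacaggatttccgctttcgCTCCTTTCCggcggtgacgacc
Rpl12: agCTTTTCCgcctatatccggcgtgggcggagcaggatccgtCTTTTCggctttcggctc
Rpl35: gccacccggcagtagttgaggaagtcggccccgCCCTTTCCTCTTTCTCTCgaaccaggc
Rpsa: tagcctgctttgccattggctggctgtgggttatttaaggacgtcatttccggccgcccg
Rps9: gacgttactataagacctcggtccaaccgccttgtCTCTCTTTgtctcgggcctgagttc
A run of this kind lay in the window of 44 of the 62 members with a RefSeq entry (71.0%), against 11245 of 27025 genes (41.6%). These counts include runs before the first transcribed base, such as the first run of Rpl12, so they are not a frequency of the TOP motif. The letters CCGGAAG, the core recognised by ETS factors such as GABP, were found on either strand within 250 bases before to 50 after the start in 24 of the 62 members (38.7%), against 2465 of all genes (9.12%). Rpsa has no such pyrimidine run in this window, and the windows of Rpl22l1 and Rps27, whose differences between classes had opposite signs, both hold one. These matches describe the letters and were not tested against the expression values.

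Most members were among the abundant messages: 75 of 84 held over 50000 UMIs over all cells. Rps29, a zinc-binding protein of the small subunit head, had the most with 437589 UMIs, followed by Rpl41, which encodes the smallest ribosomal protein, with 395712, and Rpl37a with 279365. The 5 members under 5000 UMIs were paralogues or copies named after another member: Rpl7l1 (3438 UMIs), Rps12l1 (2101), Rpl3l (466), Rpl39l (126) and Rpl10l (4). UMI counts are of transcript 3' ends and are not scaled to length. The files also list 218 pseudogenes of 54 of the members with 686625 UMIs, 5.93% of the member total, and reads of a gene and its near-identical copies can be split between them. By UMIs, the sets of Rpl19, Rps23 and Rpl3 were the 3 largest, while Rpl22l1, Rps27, Rps27l, Rps29 and Rpl41 had none. For some members the part was well above that of the total: the pseudogenes of Rpl10a held 22624 UMIs beside 78031 of the gene. Those of Rpsa held 17621 beside 77791. The identifier listed as Rpl24 carries the symbol Zbtb11 in the annotation table used here, so its values are uncertain.

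Ribosomal protein genes took a larger share of the UMIs of microglia in EAE than in healthy cord. The share was 11.2% and 12.4% in the healthy libraries. EAE ROS- microglia had 16.6% and 16.0%, and EAE ROS+ microglia 18.5% and 19.2%. The 3 groups did not overlap. EAE ROS- microglia (16.3% ± 0.418, SD, n = 2) were 4.43 percentage points above healthy microglia (11.8% ± 0.836, SD, n = 2), and EAE ROS+ microglia (18.8% ± 0.453, SD, n = 2) were 2.57 points above EAE ROS-. With 2 libraries against 2, the exact two-sided permutation test gives 0.333, the smallest p this design allows, for each difference. Over all cells without regard to class, the EAE ROS+ libraries had 18.2% and 14.8%, the EAE ROS- libraries 17.3% and 14.3%, and the healthy libraries 11.2% and 12.3%. Over all cells the gates overlapped (16.5% ± 2.40 against 15.8% ± 2.095, exact permutation p = 0.667), and healthy libraries lay below all 4 EAE libraries. In sums over all cells, more cells of a ribosome-rich class and more ribosomal protein messages per cell cannot be told apart.

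**Figure D1:**
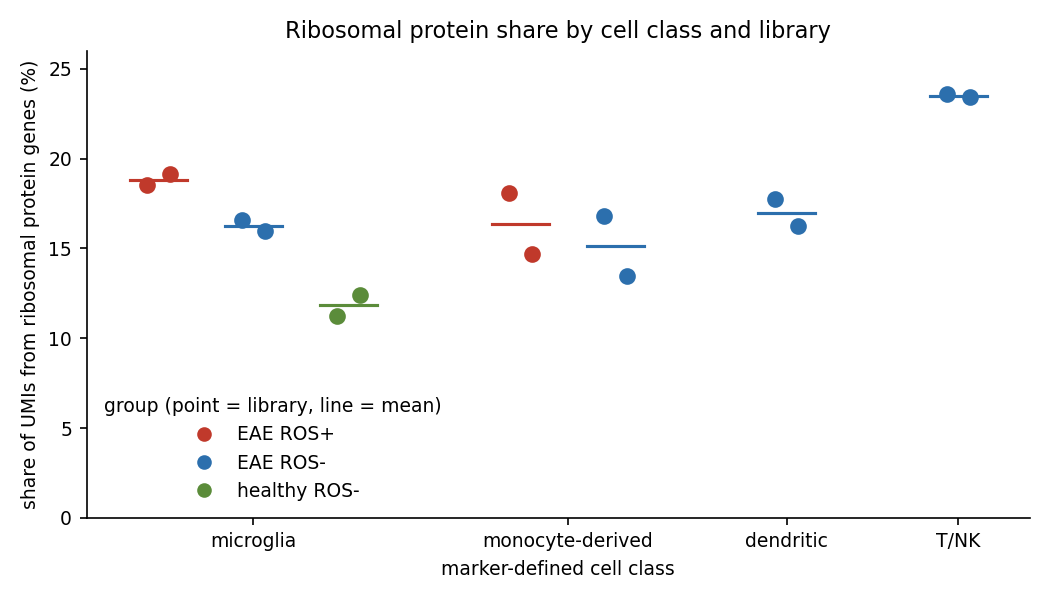
Share of UMIs from the 84 ribosomal protein genes (y axis, percent) in each library, by cell class (x axis) and group (colour); each point is 1 library. T/NK cells sit highest at 23.6% and 23.4%, and healthy microglia lowest at 11.2% and 12.4%.

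The share also differed between cell classes of the same library. Within the EAE ROS- libraries it was 23.6% and 23.4% in T/NK cells, 17.7% and 16.2% in dendritic cells, 16.6% and 16.0% in microglia and 16.8% and 13.5% in monocyte-derived cells. T/NK cells exceeded monocyte-derived cells of the same library in both libraries, on average by 8.37 points. Dendritic cells did so by 1.84 points, but with classes taken from clusters the difference was -1.70 points; the dendritic class joins cells of clusters with different shares, described below. Microglia, which lay above in replicate 2 and below in replicate 1, differed by 1.12 points on average. Neutrophils were detected as 3 and 9 cells, all of them EAE ROS+, and their share was 4.38% (95% exact binomial interval 4.11 to 4.67) and 7.503% (7.30 to 7.71). These intervals cover counting error only. Both shares lay below those of microglia, monocyte-derived, dendritic and T/NK cells in every library. The median neutrophil had 4.00% and 4.23%. The 2 endothelial cells were not compared. In monocyte-derived cells the share was 18.1% and 14.7% behind the ROS+ gate and 16.8% and 13.5% behind the ROS- gate, a difference of 1.24 points (16.4% ± 2.37 against 15.1% ± 2.38, SD, n = 2, exact permutation p = 0.667). In both gates replicate 1 was the higher, by more than the gates differed.

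Depth differed between the groups alongside the share. The median microglial cell had 8544 and 6340 UMIs behind the ROS+ gate and 6736 and 4720.5 behind the ROS- gate in EAE, against 2179 and 3611.5 in health. Within the healthy libraries the share rose with a cell's UMI count, from 9.18% in the lowest quartile of cells (median 1519.5 UMIs) to 13.3% in the highest (4025 UMIs) in replicate 1 and from 10.9% to 13.2% in replicate 2. In EAE ROS- microglia it ran from 15.1% to 17.1% in replicate 1 and from 14.7% to 16.4% in replicate 2. The lowest quartiles of EAE ROS- cells (median 4304 and 3012.5 UMIs) had higher shares than the highest quartiles of healthy cells. EAE ROS+ microglia were near level, between 17.5% and 19.8% in all quartiles of both libraries. When only cells of 2000 to 8000 UMIs were used, EAE ROS- microglia were 3.78 points above healthy ones. Depth was not matched between the groups within this range, and the part of depth in the share was not tested.

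**Figure D2:**
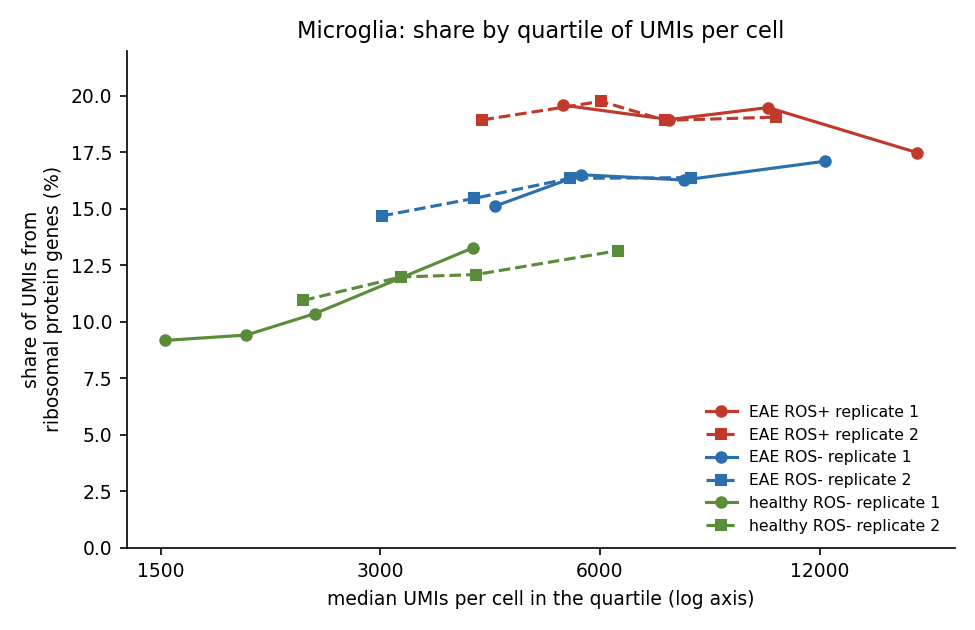
Share of UMIs from ribosomal protein genes (y axis, percent) against median UMIs per cell (x axis, log scale) in 4 quartiles of the microglia of each library, ordered by UMI count; lines join the quartiles of a library. Healthy quartiles end at 13.3% and 13.2%, below the lowest EAE ROS- quartiles at 15.1% and 14.7%.

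Microglia of health and disease also fell into different clusters when cells were clustered without the ribosomal protein genes. Of the EAE ROS- microglia, 91.0% and 98.4% lay in cluster 4, with a share of 16.2% and 16.0%. Of the healthy microglia, 72.6% and 81.6% lay in cluster 0, with a share of 9.70% and 12.1%, and 27.2% and 18.4% in cluster 9, with 13.5% and 13.4%. Cluster 9 was led by Adamts1, Klf2, Rhob, Egr1 and Jun, immediate early and stress genes, and its healthy replicate 1 cells had a median of 3670.5 UMIs against 1985 in cluster 0. Dividing cells were 105 of 531 and 68 of 246 EAE ROS- microglia against 4 of 1749 and 1 of 196 healthy ones. Dividing and other EAE ROS- microglia had nearly the same share, 16.3% against 16.7% in replicate 1 and 15.8% against 16.1% in replicate 2.

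Gene by gene, 39 of the 81 members tested were higher in EAE ROS- than in healthy microglia and 1 was lower (edgeR quasi-likelihood test, adjusted p under 0.05 over all genes tested). Among all genes, 16.1% were called higher and 12.3% lower. The median log2 fold change was 0.65 over the members tested, with the middle 50% of them between 0.47 and 0.88, and -0.03 over all genes. Both subunits moved alike, with 23 of 48 large-subunit genes higher and none lower (median 0.65) and 16 of 33 small-subunit genes higher and 1 lower (median 0.67). In 74 members both EAE ROS- libraries lay above both healthy libraries and in 1 below, where 32.4% and 33.4% of all genes did so.

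In the large subunit, Rpl41 stood at 6330 and 5248 CPM in EAE ROS- microglia (replicates 1 and 2) and at 2483 and 2437 in healthy microglia. It rose by 1.23 ± 0.25 (log2, SE; adjusted p = 0.000865). Rpl35, a protein at the polypeptide exit of the tunnel, had 3670 and 2823 against 1446 and 1273 CPM, so that the groups lay well apart (log2 1.26 ± 0.25, adjusted p = 0.000766). Rpl10a, part of the stalk through which deacylated tRNA leaves, had 1810 and 1526 against 673 and 785 CPM and rose by 1.197 ± 0.25 (adjusted p = 0.000875). Rpl3, which lies near the peptidyl transferase centre, rose less, with 2100 and 1667 against 938 and 1157 CPM (log2 0.85 ± 0.25, adjusted p = 0.0125). Rpl36 and Rpl36a, which are different proteins despite their names, rose by 0.94 and 0.69 log2 units. Rpl10 (log2 0.47, adjusted p = 0.183), Rpl7 (0.42, 0.211), Rpl37a (0.59, 0.0813) and Rpl39 (0.63, 0.0559) did not pass the test.

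In the small subunit, Rps2, a protein of the mRNA entry site, had 2051 and 2137 CPM in EAE ROS- microglia and 764 and 918 in healthy microglia. The groups did not overlap and the gene rose by 1.32 ± 0.24 (log2, SE; adjusted p = 0.000324). Rpsa, which also has a role as a laminin-binding protein, had 1242 and 1284 against 493 and 681 CPM and rose by 1.11 ± 0.25 (adjusted p = 0.00165). Rps29, the most abundant member, differed by 0.24 ± 0.25 (7187 and 6360 against 5743 and 5758 CPM, adjusted p = 0.518), and Rps4x, which is X-linked, by 0.05 ± 0.26, with the healthy libraries at 1532 and 2366 on both sides of the EAE ROS- libraries at 2210 and 1821. The member called lower was Rps12l1, annotated by its name as a copy of Rps12, with 45.0 and 47.7 CPM in EAE ROS- and 61.2 and 113 in healthy microglia (log2 -0.85 ± 0.28, adjusted p = 0.0270). DESeq2 did not call it, and its healthy libraries differed from each other by more than EAE ROS- replicate 2 differed from healthy replicate 1.

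The stalk is the flexible arm of the large subunit that recruits elongation factors. Rplp0, the base of the stalk, had 2849 and 2411 CPM in EAE ROS- and 1225 and 1257 in healthy microglia and rose by 1.08 ± 0.24 (log2, SE; adjusted p = 0.00187). Rplp2 differed by 0.54 ± 0.24 (2562 and 2322 against 1485 and 1873, adjusted p = 0.106). Rplp1, the partner of Rplp2 in the heterodimers that bind Rplp0, had 3156 and 3100 CPM in EAE ROS- microglia, between the healthy libraries at 2768 and 3968 (log2 -0.11 ± 0.25, adjusted p = 0.796). Whether the change of Rplp0 differs from that of Rplp1 was not tested.

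**Figure D3:**
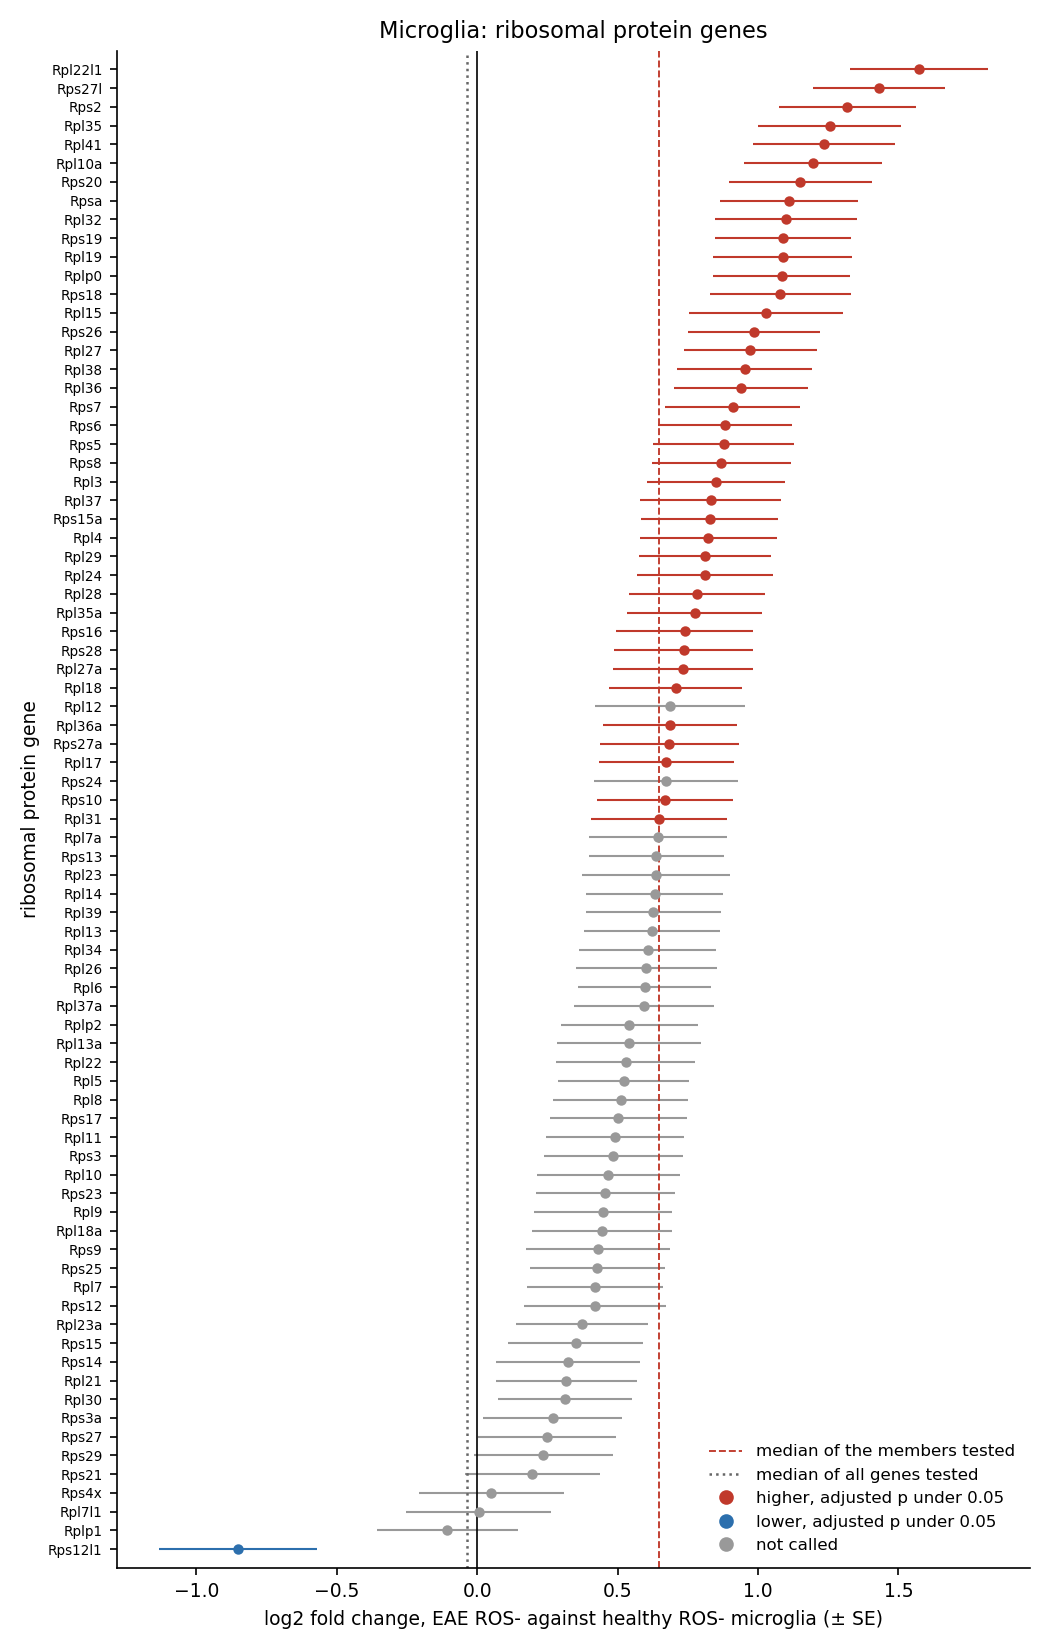
Log2 fold change (x axis, edgeR estimate with SE bars) of ribosomal protein genes (y axis) in microglia, EAE ROS- against healthy ROS-, ordered by size and coloured by call, with the medians of all members tested and of all genes as vertical lines. Most lie above 0 around a median of 0.65, with Rpl22l1 and Rps27l at the top and Rps12l1, at -0.85, at the bottom.

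The largest changes of all members in this comparison were those of 2 minor paralogues. Rpl22l1, a close relative of Rpl22 that can take its place in the ribosome and that regulates RNA splicing, had 779 and 644 CPM in EAE ROS- microglia against 243 and 235 in healthy ones. It rose by 1.57 ± 0.25 (log2, SE; adjusted p = 4.76e-05), whereas Rpl22 differed by 0.53 ± 0.25 (885 and 822 against 477 and 711, adjusted p = 0.119). Rps27l, a relative of Rps27 and a known target of p53, had 406 and 431 against 149 and 162 CPM and rose by 1.43 ± 0.24 (adjusted p = 9.44e-05). Rps27 differed by 0.25 ± 0.25 (2975 and 2760 against 2702 and 2122, adjusted p = 0.487). Rpl7l1, a relative of Rpl7, was at 62.7 and 74.5 against 76.6 and 55.0 CPM, which overlapped (log2 0.01 ± 0.26).

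The balance within each pair differed between classes as well as between health and disease. Of the UMIs of Rpl22 and Rpl22l1 together, Rpl22l1 held 33.7% and 24.9% in healthy microglia. It held 46.8% and 44.0% in EAE ROS- microglia and 48.0% and 41.6% in EAE ROS+ microglia. In monocyte-derived cells it held between 28.7% and 30.7% in all 4 EAE libraries, in dendritic cells 35.5% and 28.0%, and in T/NK cells 44.1% and 40.2%. Of the UMIs of Rps27 and Rps27l together, Rps27l held 5.23% and 7.08% in healthy microglia, 12% and 13.5% in EAE ROS- microglia, 9.31% to 11.03% in monocyte-derived cells, 4.76% and 6.20% in T/NK cells, and 30.4% and 18.8% in dendritic cells. Microglia and T/NK cells of the EAE ROS- libraries both had Rpl22l1 fractions of 40.2% or more and lay on opposite sides of monocyte-derived cells in their Rps27l fraction. The fractions were not tested.

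**Figure D4:**
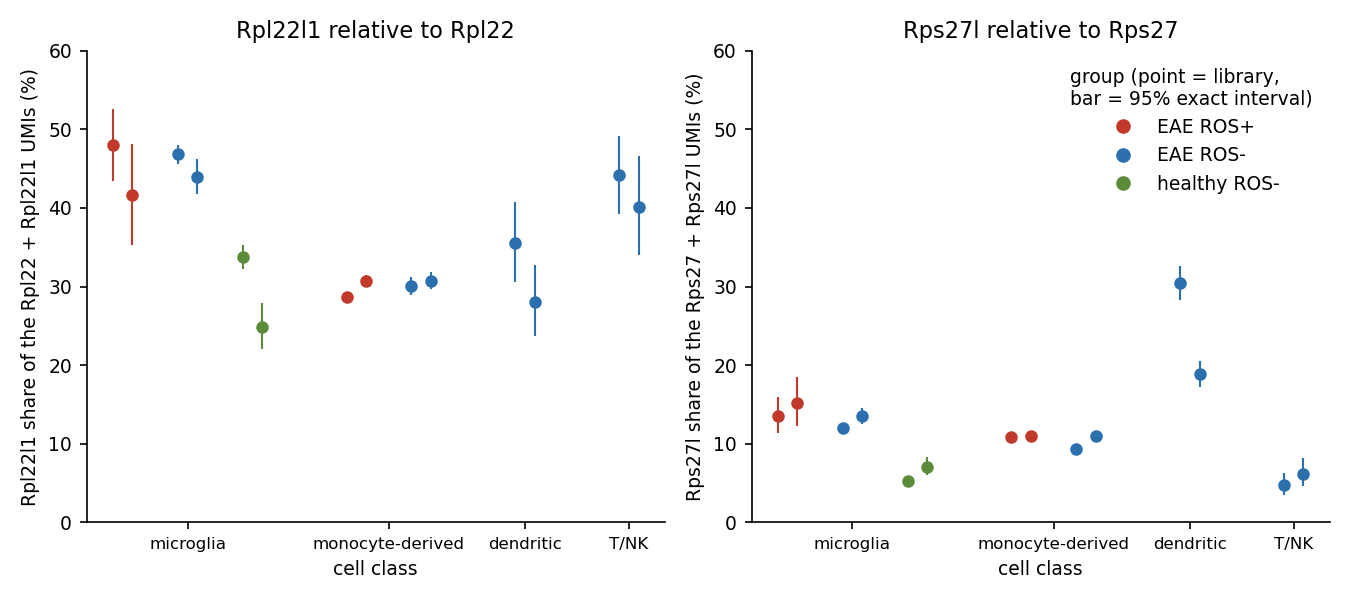
Fraction of a pair's UMIs that comes from the minor paralogue (y axis, percent): Rpl22l1 of Rpl22 and Rpl22l1, and Rps27l of Rps27 and Rps27l, by cell class and group; each point is 1 library with its 95% exact binomial interval. Rpl22l1 reaches 48.0% in EAE microglia against 24.9% and 33.7% in healthy microglia, and Rps27l reaches 30.4% in dendritic cells.

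Other lists of protein synthesis genes were counted in the same comparison, against the 16.1% of all genes called higher and 12.3% lower. Among translation elongation factors and other TOP messages, 10 of 18 tested were higher and none lower in EAE ROS- than in healthy microglia (median log2 0.80), including Hnrnpa1 (1.38), the elongation factor subunit Eef1g (1.28) and the nascent chain factor Btf3 (1.22). Of 30 initiation genes 9 were higher and none lower (median 0.49), led by Eif3i (1.33), Eif5a (1.25) and Eif2s1 (1.16). Ribosome biogenesis genes were called higher at a share below that of all genes, 4 of 29 with none lower (median 0.61), among them the nucleolar chaperone Npm1 (1.27), the snoRNP protein Nhp2 (1.17) and Pes1 (0.88). Mitochondrial ribosomal proteins, which serve a separate ribosome, were higher in 19 of 73 and lower in none (median 0.47), with Mrpl54 at 1.39. The mTORC1 and Myc axis was near the share of all genes in both directions, with 3 of 16 higher, Eif4ebp1 (0.99) among them, and 2 lower, the mTORC1 subunit Rptor (-1.57) and the Myc antagonist Mxd4. These lists and the members share libraries and scaling.

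Marker lists of other cells differed between these microglial sums too. The monocyte-derived list stood at 243 and 252 CPM in EAE ROS- microglia, with 8 of its 8 listed genes detected in each, and at 11.5 and 31.4 in healthy microglia, with 7 and 4 detected. The endothelial list stood at 242 CPM in healthy replicate 2, with 5 of its 6 genes detected, and at 2.26 in healthy replicate 1. In EAE ROS- microglia it stood at 2.71 and 2.23. The dividing-cell list stood at 323 and 571 against 24.4 and 36.0, and the microglial list itself at 2892 and 3650 against 10258 and 10965. The part of the monocyte-derived list, of the endothelial list and of cluster makeup in the member changes was not tested. Of the 39 members called higher, 21 were called in each of 8 alternatives, among them stricter markers, no dividing cells, and cells of 2000 to 8000 UMIs alone, a range applied to these tests after the data were seen. Leaving out EAE ROS- replicate 1 left 14 called higher, leaving out EAE ROS- replicate 2 left 21, and leaving out healthy replicate 1 left 20. The 14 members called in all of these alternatives and with each library left out in turn were Rpl10a, Rpl19, Rpl22l1, Rpl32, Rpl35, Rpl41, Rplp0, Rps2, Rps18, Rps19, Rps20, Rps26, Rps27l and Rpsa. Relative to the summed UMIs of all members, which takes out the common rise, 8 members were higher and 4 lower, and Rpl22l1, Rps27l, Rps2, Rpl35, Rpl41, Rpl10a, Rpl32 and Rps20 were the higher ones.

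Summed over all cells, EAE ROS- libraries differed from healthy ones in more members, in sums that mix the classes. Of 83 members tested, 64 were higher and 1 lower (edgeR, adjusted p under 0.05), where 19.9% of all genes were called higher and 14% lower. The median was 0.91 over the members and 0.01 over all genes, and in 77 members both EAE ROS- libraries lay above both healthy ones and in 1 below, against 37% and 32.6% of all genes. Rps27l had 459 and 535 CPM against 128 and 136 (log2 1.91 ± 0.22, adjusted p = 0.000291), and Rplp0 3161 and 2900 against 1053 and 1016 (log2 1.55 ± 0.24, adjusted p = 0.00146). Rps19, mutated in Diamond-Blackfan anaemia, rose by 1.49 (3475 and 3102 against 1220 and 1115). Rpl15 rose by 1.40, though its EAE ROS- libraries, at 1265 and 790 CPM, were far apart. Without healthy replicate 1 only 18 members were called higher, without healthy replicate 2 35, and without EAE ROS- replicate 1 30. With plain library totals in place of TMM scaling 19 were higher, and the median of all genes was then -0.47. Of the other lists, 13 of 18 elongation and TOP genes, 14 of 30 initiation genes and 38 of 76 mitochondrial ribosomal protein genes were higher over all cells and none lower. Of 31 ribosome biogenesis genes 5 were higher, near the share of all genes, and 1 lower, well below the 14% of all genes (median 0.34). Of 18 genes of the mTORC1 and Myc axis 4 were higher and 2 lower, both near the shares of all genes.

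The rarest paralogues had few UMIs, and their groups differed at most in counts. Rpl3l, the muscle paralogue of Rpl3, had 63 and 105 UMIs in the EAE ROS- libraries and 0 in both healthy libraries, which is at least 10.8-fold higher against a floor of 3 UMIs over the healthy group. Within the EAE ROS- libraries it was mainly a message of monocyte-derived and dendritic cells, with 6.498 and 11.7 CPM in the former and 16.0 and 21.4 in the latter against 1.38 and 1.38 in microglia. T/NK cells had 0 Rpl3l UMIs, which allows up to 10.1 CPM, so no difference from monocyte-derived cells was detectable there. In microglia alone it had 6 and 2 UMIs behind the EAE ROS- gate and 0 in both healthy libraries, at least 2.44-fold higher against the same floor. Rpl39l, a relative of Rpl39 known from the testis, had 26 and 2 UMIs in the healthy libraries and 15 and 26 in the EAE ROS- libraries, which differ in depth. Scaled for depth, it stood at 0.999 and 2.40 CPM in EAE ROS- and at 4.45 and 1.70 in healthy libraries, which overlapped (edgeR, log2 -1.12 ± 0.77, adjusted p = 0.291). Rpl10l, the testis relative of Rpl10, had 0 and 0 against 2 and 1 UMIs and cannot be compared.

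No member was called between the ROS gates by the tests without a replicate block. Over all cells, 0 of 83 members were called higher or lower in EAE ROS+ against EAE ROS- by edgeR and also by DESeq2, and 0 had an unadjusted p under 0.05, where 0.125% of all genes were called higher and 2.04% lower by edgeR. In 31 members both ROS+ libraries lay above both ROS- libraries and in 1 below, where 21.2% and 24.7% of all genes did so. The median was 0.22 against -0.01 over all genes. Rplp0 differed most between the gates among the 3 stalk genes (4187 and 3932 against 3161 and 2900 CPM, log2 0.42 ± 0.24, adjusted p = 0.552). Rpl37a lay at 0.40 ± 0.27 (adjusted p = 0.631) and Rpl22l1 at -0.23 ± 0.23. With the replicate number as a block and the EAE libraries alone, a fit with 1 residual degree of freedom chosen after the data were seen, 1 member was called lower, Rps12l1, which lay at -0.53 ± 0.28 (adjusted p = 0.512) without the block.

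Within microglia, 0 of 81 members were called between the gates by edgeR and by DESeq2, and 0 had an unadjusted p under 0.05. Among all genes 0.0112% were called higher and 0% lower. The median log2 fold change was 0.20 over the members and -0.06 over all genes. It was above 0 in 77 of the 81 members, where 45.2% of all genes were above 0. In 53 members both ROS+ libraries lay above both ROS- libraries and in none below, where 16.1% and 23.5% of all genes did so, and all members share the same 4 sums. Rps27l had 472 and 577 CPM in ROS+ and 406 and 431 in ROS- microglia (log2 0.32 ± 0.24, adjusted p = 0.939). Rpsa differed by 0.00 ± 0.25, with 1257 and 1279 against 1242 and 1284 CPM, which overlapped. The ROS+ sums came from 27 and 21 cells, 13 and 6 of them dividing, and the median standard error over the members was 0.25 log2 units. The same sums carried the monocyte-derived list at 361 and 253 CPM, against 243 and 252 in ROS- microglia. Its part in the gate difference was not tested.

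Within monocyte-derived cells, which gave more cells per gate than microglia, 0 of 83 members were called by edgeR or DESeq2 and 0 had an unadjusted p under 0.05, with 0% of all genes called in either direction. Both ROS+ libraries lay above both ROS- libraries in 3 members and below in 1, where 15.3% and 16.3% of all genes did so. The median log2 fold change was 0.11 over the members and 0.003 over all genes. Rplp0 had 3495 and 3292 CPM in ROS+ and 3155 and 2609 in ROS- cells (log2 0.24 ± 0.23), and Rps29 7026 and 5182 against 5471 and 4535 (log2 0.29 ± 0.27), both with an adjusted p of 1. The gate difference was then compared between the classes in 1 model, and it differed in 0 of 83 members by edgeR and by DESeq2 and in 0 at an unadjusted p under 0.05, where 0.034% of all genes were called higher and 0% lower. The median of this difference was 0.01 over the members and -0.14 over all genes, and for Rps27l it was 0.07 ± 0.27. In both classes and over all cells, none of the genes of ribosome biogenesis, elongation, initiation, the mTORC1 and Myc axis or the mitochondrial ribosome was called between the gates.

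T/NK cells had higher levels of many members than monocyte-derived cells of the same EAE ROS- libraries. Of 82 members tested, 24 were higher and 1 lower (edgeR with the library as a block, adjusted p under 0.05), where 8.4% of all genes were called higher and 10.9% lower. The median was 0.40 over the members and -0.05 over all genes, with 17 of 49 large-subunit and 7 of 33 small-subunit genes higher. Rpl12, a protein at the foot of the stalk, had 1455 and 1176 CPM in T/NK cells and 627 and 496 in monocyte-derived cells (log2 1.23 ± 0.20, adjusted p = 1.16e-05). Rpl22l1 had 926 and 699 against 395 and 334 (log2 1.15 ± 0.21), and Rpl13a, which also acts outside the ribosome in silencing inflammatory messages in myeloid cells, had 5578 and 5689 against 3047 and 2351 (log2 1.07 ± 0.17). In each of these genes both T/NK sums lay well above both monocyte-derived sums, as they did in 62 members in all, with 3 below, against 26.2% and 34.1% of all genes.

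Further members higher in T/NK cells were Rpsa (log2 0.93), Rps15a (0.84), Rpl5 (0.83), which with Rpl11 binds Mdm2 when ribosome assembly fails, Rplp1 (0.65), Rpl3 (0.60) and Rpl39 (0.51). The member called lower was Rps9, a protein of the small subunit body, with 2569 and 2174 against 4038 and 2929 CPM (log2 -0.54 ± 0.18, adjusted p = 0.0309), a call that was lost with DESeq2, with median-ratio size factors, with plain totals and with stricter markers. Rps27l lay at 246 and 342 against 449 and 483 (log2 -0.68 ± 0.25, adjusted p = 0.0506), and Rps29 at 5326 and 5197 against 5915 and 4880 (log2 -0.03 ± 0.17). Among the other lists, Eef2 (0.77), Eef1g and Gnb2l1 were the 3 of 18 elongation and TOP genes called higher, and Gar1, Nop58 and Ncl the 3 of 27 biogenesis genes. Of 15 genes of the mTORC1 and Myc axis, Myc (3.14) and Mxd4 (1.94) were higher and Eif4ebp1 (-0.91), Larp1 (-1.23) and Tsc1 were lower. With plain totals 60 members were higher, DESeq2 called 40, scaling to the members' sum 5, and no filter on low counts 5. Leaving out a library leaves no test between classes, and the 5 called under every other alternative were Rpl12, Rpl13a, Rpl22l1, Rps15a and Rpsa. The T/NK sums come from 28 and 22 cells of a CD11b+ sort and carry the monocyte-derived list at 278 and 466 CPM, whose part was not tested.

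**Figure D5:**
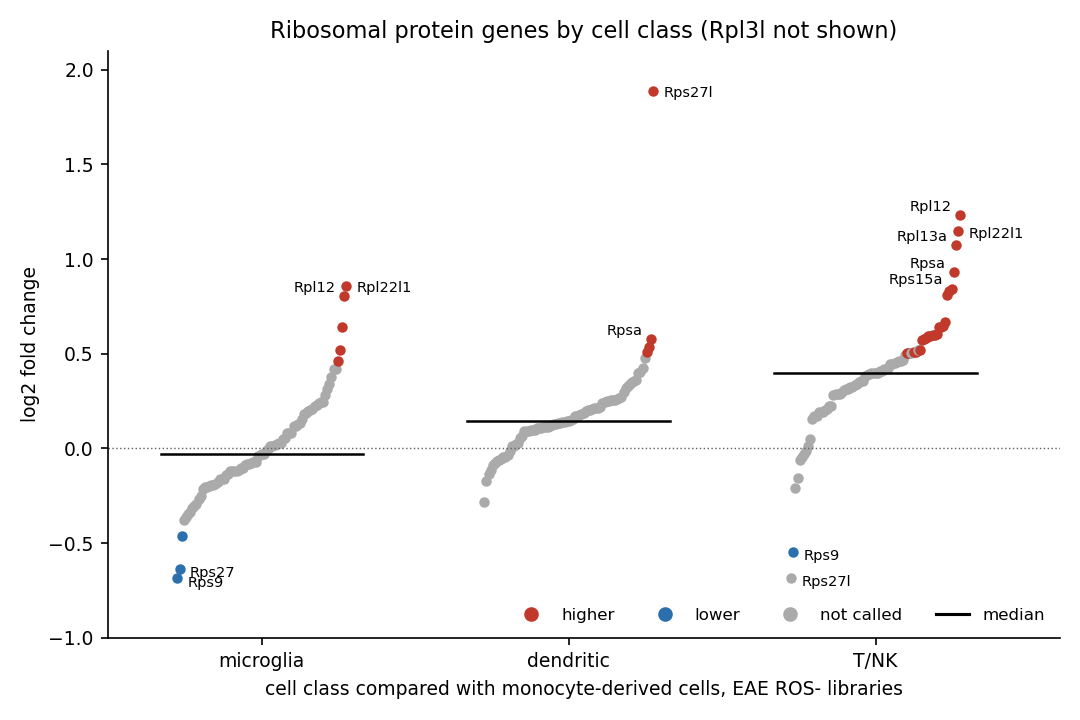
Log2 fold change of ribosomal protein genes in T/NK, dendritic and microglial sums against monocyte-derived sums of the 2 EAE ROS- libraries (edgeR estimates); each point is 1 gene, coloured by call, with some genes labelled, black lines at the medians and Rpl3l not shown. The T/NK points centre on 0.40 with Rpl12 highest at 1.23, and Rps27l stands alone at 1.89 in dendritic cells.

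Between microglia and monocyte-derived cells of the EAE ROS- libraries, few members passed the test. Of 82 tested, 5 were higher and 4 lower in microglia, where 20.9% of all genes were called higher and 17.7% lower, and the median was -0.03 against 0.04 over all genes. With plain totals 10 were higher and the median was 0.10. Both microglial sums lay above both monocyte-derived sums in 12 members and below in 14, where 36.8% and 31.9% of all genes did so. Rpl22l1 had 727 and 597 against 395 and 334 CPM (log2 0.86 ± 0.19, adjusted p = 0.000468), and Rpl12 998 and 950 against 627 and 496 (log2 0.80 ± 0.19, adjusted p = 0.000743), and the sums did not overlap. The values of these genes in T/NK cells against the same monocyte-derived sums were 1.15 and 1.23. Rpl10a (0.64), Rplp1 (0.46) and Rps12l1 (0.52) were the other members called higher.

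Lower in microglia were Rps27, with 2777 and 2558 against 4375 and 3916 CPM (log2 -0.64 ± 0.17, adjusted p = 0.00295), and Rps9, with 2474 and 1847 against 4038 and 2929 (log2 -0.69 ± 0.18, adjusted p = 0.00224). The Rps27 sums were far apart in both libraries. Rpl3l (log2 -2.50 ± 0.56) and the gene listed as Rpl24 (-0.46 ± 0.18) were the others. Rpl12, Rpl22l1, Rps27 and Rps9 were called under every alternative run. In the other lists 12 of 27 biogenesis genes were higher in microglia and none lower (median 0.55), including Wdr12 (1.56) and the snoRNP proteins Dkc1 (1.40) and Nop56 (1.40), while 2 of 18 elongation and TOP genes, Fau and Tpt1 (-0.996), were lower and none higher. Of 15 genes of the mTORC1 and Myc axis 4 were higher, led by Myc (2.01), and 3 lower, led by the Myc antagonist Mxd1 (-1.84). Initiation genes were higher in 2 and lower in 4 of 30, and mitochondrial ribosomal proteins higher in 1 and lower in 4 of 71. Dividing cells are 105 of 531 and 68 of 246 of these microglia, and without them 2 members were called lower in place of 4.

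Dendritic cells differed from monocyte-derived cells chiefly in Rps27l. It had 2163 and 1315 CPM in dendritic cells and 449 and 483 in monocyte-derived cells, higher by 1.89 ± 0.22 on the log2 scale (edgeR adjusted p = 4.49e-08), and the dendritic sums lay far above every other class. Of 82 members tested 4 were higher and none lower, where 8.38% of all genes were called higher and 8.38% lower, and the median was 0.15 against -0.05 over all genes. Both dendritic sums lay above both monocyte-derived sums in 29 members and below in 2, where 24.7% and 31.5% of all genes did so. Rpsa (0.58) and Rpl39 (0.51) were among the others, and only Rps27l was called under every alternative. Rps27 differed by 0.36 ± 0.17 (4952 and 5669 against 4375 and 3916, adjusted p = 0.172). Of 27 biogenesis genes none was higher and 1 lower (median -0.58). The dendritic sums carried the monocyte-derived list at 204 and 439 CPM, whose part was not tested.

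The Rps27l signal came mainly from a subset of the dendritic cells, chosen after its values were seen and so given without a test. In clusters computed without ribosomal protein genes, 73 dendritic cells lay in cluster 10 and 33 in cluster 13. Cluster 13 was led by Serpinb6b, Ccr7, Ccl22 and Fscn1, genes of migratory dendritic cells, but Ccr7 and Ccl22 were also among the leading genes of cluster 10. Fscn1 stood at 4063 and 3165 CPM in EAE ROS- dendritic cells of cluster 13 and at 11.3 and 15.5 in those of cluster 10. Ccr7 stood at 2467 and 2624 against 510 and 504. In the EAE ROS- libraries the 15 and 18 cells of cluster 13 had 434 and 274 Rps27l UMIs, or 5634 and 3224 CPM, and the 26 and 44 cells of cluster 10 had 521 and 573 CPM. Rps27 was alike in the cluster 13 cells, at 4700 and 4577 CPM, and in those of cluster 10, at 4801 and 5461. Over all cells, Rps27l stood at 4370 CPM in cluster 13 and between 88.5 and 556 in the other 14 clusters. The share of UMIs from all members was lower in the cluster 13 cells, at 13.2% and 13.4%, than in those of cluster 10, at 19.8% and 17.4%. The p53 targets Cdkn1a and Mdm2 stood at 338 and 741 and at 26 and 82 CPM in the cluster 13 cells, and at 782 and 1115 and at 45.3 and 77.5 in those of cluster 10.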

How the data were processed

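The 6 droplet libraries capture transcript 3' ends. Whole-number UMI counts of genes by barcodes were deposited for each, per the file headers. Cell Ranger 2.0.1, Seurat 3, R 3.4.2 and the mm10 build appear, with no step assigned to any of them, per the submitters' processing notes. How reads were aligned, annotated and called as cells: not given in the sources used here. Of cells, 8701 are stated in the design text, and 9079 barcodes were found.

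Barcodes under 200 genes or over 10% mitochondrial UMIs were removed, which left 9078 cells. A cell joined a class with 3 UMIs from 2 of its markers and 3 times the UMIs of each other list, and 66 of 67 markers were in the files. Doublets were not called and free RNA was not removed; 517 of the unassigned cells held 3 UMIs of both the microglial and the monocyte-derived list. Counts were summed per library and class of at least 10 cells and compared over all genes with edgeR 4.0.16 in R 4.3.3 (TMM, filterByExpr minimum count 10, quasi-likelihood F test, p adjusted by Benjamini-Hochberg and called under 0.05); DESeq2 1.42.0 was an alternative. All 3 groups shared a fit, and class comparisons used the EAE ROS- libraries with the library as a block. CPM beside tests use TMM-scaled totals, and a standard error is the size of the log2 fold change divided by the root of F. The code was tested on simulated data. Clusters came from scanpy 1.11.5 and leidenalg 0.10.2 without the ribosomal protein genes, and figures from matplotlib 3.10.9 (scikit-learn 1.9.0, scipy 1.17.1, pandas 2.3.3, numpy 2.4.6, Python 3.11.15). Replicates differed beyond counting error (chi-square over genes divided by its degrees of freedom, 3.59 to 74.6).

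Named members were the 6 largest changes per direction among those called, the pairs Rpl22/Rpl22l1, Rps27/Rps27l, Rpl39/Rpl39l, Rpl3/Rpl3l, Rpl10/Rpl10l, Rpl7/Rpl7l1 and Rpl36/Rpl36a, Rps4x, the stalk, Rpsa, and the 3 members with most and fewest UMIs; other lists name up to 3 per direction. The values of 1 member are not reported here, and it stays in the counts. The members and lists were chosen with earlier results of these data known. Alternatives were other scalings, no filter, stricter markers, no dividing cells, other cell filters, a replicate block and each library left out.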

Additional observations from a re-analysis of the deposited data

How the results depend on the processing

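Of 398 summary values under alternatives, 336 kept their size within the limits set, 58 moved beyond them and 4 were counted as reversed in sign. Reversal was counted only for medians of members in comparisons with a member called. Of 2414 values of single genes, 2240 were counted as unchanged in call and 111 lost the call. Direction was compared only for genes called in the main fit or in the alternative, and 9 such values changed sign. Changes of sign among uncalled genes were not counted. With plain library totals, the median log2 fold change of members was 0.0435 (all cells, EAE ROS+ against ROS-), 0.43 with 19 members higher (all cells, EAE ROS- against healthy), 0.46 (microglia, EAE ROS- against healthy), 0.10 with 10 higher (microglia against monocyte-derived, changing sign) and 0.66 with 60 higher and 0 lower (T/NK against monocyte-derived); the median of all genes then moved to -0.18, -0.47, -0.25, 0.17 and 0.21. Scaling to the members' sum brings their median near 0 by construction: -0.0148 for all cells between the gates, 0.0126 with 5 higher and 5 lower for all cells against healthy, -0.0055 for microglia between the gates, 0.0021 with 8 higher and 4 lower for microglia against healthy, -0.0366 with 1 higher for dendritic cells, and 0.0247 with 5 higher and 4 lower for T/NK cells. Under it, Rpl22 (-0.11), Rpl3 (-0.0428), Rpl36a (-0.0667), Rpl39 (-0.12), Rpl7 (-0.14), Rplp2 (-0.0421) and Rps29 (-0.57) changed sign over all cells against healthy, and Rps29 (-0.43) and Rps4x (-0.59) in microglia. Without a filter, 2 members were higher in microglia against monocyte-derived cells, 1 (median -0.0540) in dendritic cells, and 5 higher and 2 lower (median 0.15) in T/NK cells. DESeq2 called 0 lower in microglia against healthy, and 40 higher and 0 lower in T/NK cells; median-ratio size factors and stricter markers also left 0 lower in T/NK cells. Without dividing cells 2 were lower in microglia against monocyte-derived cells. With 2000 to 8000 UMIs per cell, a range applied to the gene tests after the data were seen, 21 were higher in microglia against healthy (median 0.46), 1 in dendritic cells, and 2 lower in T/NK cells. The share in microglia, ROS+ minus ROS-, was 3.11 points as a mean over cells, 3.25 without dividing cells and 3.24 in that UMI range; T/NK minus monocyte-derived was 10.9 in that range, and dendritic minus monocyte-derived was -1.70 with classes by cluster. The cause of these differences was not tested.

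Libraries of different groups share replicate numbers 1 and 2, which the labels do not tie to animals or days; deviations of same-numbered libraries correlated at 0.424 between EAE ROS+ and ROS- and at -0.0424 and 0.0174 with healthy ones. With the replicate block 64 members were higher over all cells and 36 in microglia, against healthy, and 0 between the gates; with EAE libraries only, chosen after the data were seen, 1 was lower over all cells between the gates. With each library left out in turn, a lone library being assumed to vary like the others, members called higher ran from 18 to 62 and lower from 0 to 1 over all cells against healthy (median 0.82 to 1.05), and from 14 to 48 and 0 to 1 in microglia (0.55 to 0.83). Medians between the gates ran from 0.05 to 0.37 over all cells, -0.0022 to 0.28 in microglia, -0.04 to 0.29 in monocyte-derived cells and -0.15 to 0.0748 for the difference between them; between classes, with no test possible, from -0.14 to -0.0339 for microglia, -0.0249 (without EAE ROS- replicate 2) to 0.21 for dendritic and 0.23 to 0.35 for T/NK cells. Share differences ran from -1.06 to 2.34 (all cells, gates), 2.54 to 5.51 (all cells against healthy), 2.25 to 2.89 (microglia, gates), 3.84 to 5.02 (microglia against healthy), -0.441 to 2.92 (monocyte-derived, gates), and within EAE ROS- from -0.262 to 2.51 (microglia), 0.914 to 2.77 (dendritic) and 6.76 to 9.97 (T/NK), each minus monocyte-derived cells. Depth limits what can be said of the rare paralogues.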

Other observations

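Of the 876 cells left unassigned over all libraries, 517 held 3 UMIs of both the microglial and the monocyte-derived list. This did not hold in each library. The median unassigned cell had 0 UMIs of the microglial list in EAE ROS+ replicate 2 and 0 of the monocyte-derived list in healthy replicate 1. The share of ribosomal protein UMIs in unassigned cells was 19.8% and 15.5% in EAE ROS+ and 18.1% and 15.3% in EAE ROS- libraries. The 5 such cells of each healthy library had 14.3% and 11.1%. In EAE ROS+ microglia, dividing cells had 17.2% against 20.5% in the other cells of replicate 1 and 19.9% against 18.7% in replicate 2, so the direction differed between the libraries. Only 1 dendritic cell was found in EAE ROS+ replicate 2, with 10.6%, and the 2 of replicate 1 had 22.3%. The 2 T/NK cells of EAE ROS+ replicate 2 had 23.8%, close to the T/NK cells of the EAE ROS- libraries at 23.6% and 23.4%.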
